A study of Mus musculus with 4 samples.

Results

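Testicular cells of mice given alginate oligosaccharides (AOS) were compared with those of control mice, over all cells of both libraries. The members were every cell of the control library (A0, 8941 cells) and every cell of the AOS library (A10, 9682 cells), together 18623 of the 27060 cells of the series. A0 mice received the vehicle, water, and A10 mice received AOS in water at 10 mg/kg body weight by oral gavage. All were males of the outbred ICR stock, 3 weeks old when treatment began, and neither group received busulfan. The other libraries, used here only for side-by-side values, were B0 (a single injection of busulfan, an alkylating anti-cancer drug) and BA10 (the same injection, with AOS at 10 mg/kg given as well). In each group the dissociated cells of several mice were combined before capture and made into 1 library, so animals cannot be told apart, and AOS, the genotypes of the pooled outbred mice and the preparation of the library cannot be told apart either. With 1 library per group no test was possible, and every interval given covers counting error only, at 95%.

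Breaking down alginate, a structural sugar polymer in the cell walls of brown algae, yields AOS. In the seminiferous tubule, spermatogonia (SPGs) divide and enter meiosis as spermatocytes (SPCs), and haploid spermatids (STs) follow. Transcripts of STs are often stored and translated late, when transition proteins and then protamines replace histones and compact the sperm head. Sertoli cells nurse the germ cells within the tubule, while Leydig cells, macrophages and vessels lie outside it.

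The largest differences between the libraries were few and sat mostly on genes of low level. Speer1 was 3.50-fold as high in A10 as in A0 and 1600014C10Rik was 0.105-fold as high. In the gene lists described below, Speer1, Cst9, Rps27, Rps28 and Atp5k were the members that passed a log2 ratio of 0.5 (Cst9 at 0.52, and short of it at 0.496 with the cell mix held fixed), and the rest stayed short of it in both directions. A level is the number of unique molecular identifiers (UMIs, each marking 1 captured transcript) of a gene summed over a library and scaled to a library total of 1000000 (CPM). UMIs mark the 3′ ends of transcripts, so CPM is not divided by length, and in such a pooled level fewer cells of a type and less RNA per cell cannot be told apart. Log2 ratios have 1 CPM added to both sides, folds and their intervals have none. Of 18419 genes, 9024 were seen in 5% or more of cells of A0 or A10 and were kept, and 9395 were not. A gene was called higher or lower when its log2 ratio of A10 over A0 was 0.5 or more in either direction, which marks size and is not a test. Of the genes kept, 43 were higher in A10 (0.477%) and 42 were lower (0.465%).

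The distribution around these genes was narrow. The median log2 ratio was -0.03, the quartiles were -0.11 and 0.06, and 90.5% of the genes kept lay within 0.25 of 0 in either direction. With this median, more of the genes kept lay below 0 than above it, which is the background for the counts above 0 in gene lists. Across genes, which are not independent replicates and share both libraries, Pearson's r of log2 levels was 0.997. Counting error was small at this depth: the interval of the ratio excluded 1 for 63.4% of the genes kept, and for all 85 genes past the fold, so it does not separate the called genes from the rest. At the limits, Klk1b4 was called at a log2 ratio of 0.500327 and Anapc13 was not at 0.499144, while Galm was called at -0.50 and Erich6b was not at -0.49. Rnf112, in 5.01% of A10 or A0 cells, was the gene kept with the fewest cells, and Nectin4, in 4.99944%, was the last one left out.

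**Figure D1:**
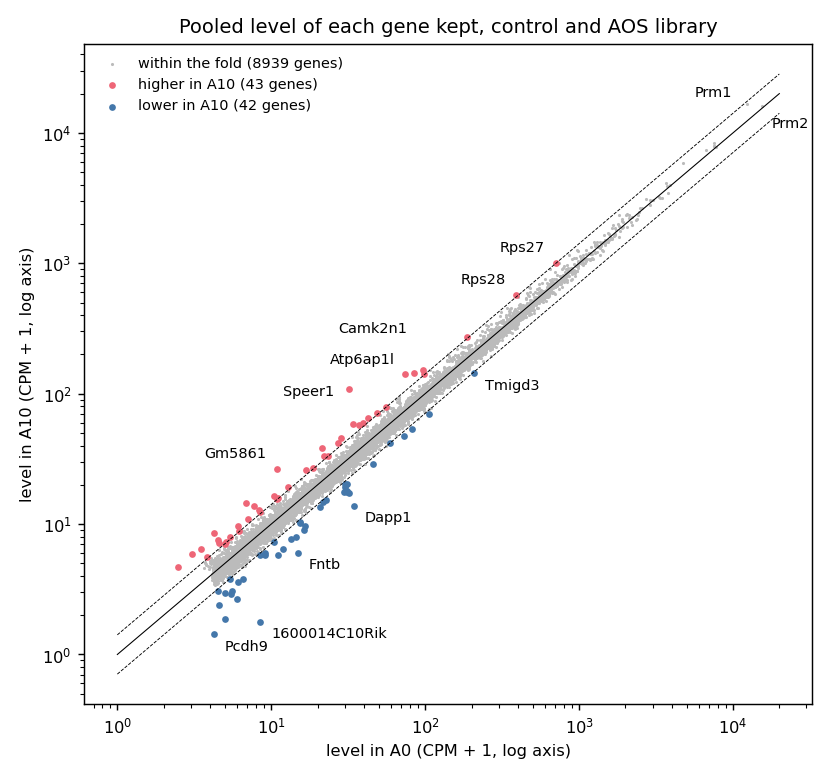
Pooled level of the 9024 genes kept in A0 (x axis) and A10 (y axis), as CPM with 1 added on log axes. The solid line marks equal levels and the dashed lines a log2 ratio of 0.5 either way. The 43 higher and 42 lower genes lie mainly at low levels, with Speer1 and 1600014C10Rik farthest from the line.

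The libraries differed somewhat in depth. Their totals were 150812974 UMIs in A0 and 143714595 in A10, with medians of 12685 and 10948 UMIs per cell. The lowest UMI count of a cell was 7687 in A0 and 6716 in A10, and 1162 A10 cells lay below the A0 limit. Median genes per cell were 3358 and 3075, and 2485 and 2469 after each cell was thinned to 6500 UMIs. The libraries shared 135 cell barcodes. The 50 most abundant genes took 16.8% of UMIs in A0 and 17.9% in A10.

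Cells fell into SPC-like, round ST-like, late ST-like, SPG-like and somatic-like classes by markers, described further down. Of the 43 higher genes, 40 were still past the fold when the mix of cell clusters was held at the same proportions in both libraries, as were 36 of the 42 lower genes, and all 85 kept their sign. In that calculation 46 genes were higher (0.51%) and 37 were lower (0.41%). Without holding the mix fixed, 80 of the 85 genes were past the fold in the same direction among cells at or above 7687 UMIs, and 82 were without cells called doublets. With each of these changes made together with the fixed mix, the number was 75 and 71, respectively.

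Speer1 belongs to a rodent family of genes for glutamate-rich proteins made in germ cells, which exists as many similar copies, so that some reads may fit several of them. It lies on chromosome 5 (mm10, 11341516 to 11346286, plus strand). Its level was 30.8 CPM in A0 against 108 CPM in A10, a fold of 3.50 (3.38 to 3.61). UMIs of Speer1 were found in 25.2% of A0 cells and 45.5% of A10 cells, and in 12.6% and 31.6% after thinning to 6500 UMIs. The difference appeared in every class with a similar log2 ratio: 1.80 in SPC-like cells (57.2 to 201 CPM), 1.505 in round ST-like cells (17.96 to 52.8 CPM), 1.53 in late ST-like cells (3.16 to 11.0 CPM), 1.79 in SPG-like cells and 1.83 in somatic-like cells. The level was highest in SPC-like cells, with UMIs in 39.7% of A0 and 68.6% of A10 cells, against 4.14% and 11.3% of late ST-like cells. The part of RNA carried over from SPC-like cells in the levels of the other classes was not tested. Speer1 stood at 53.6 CPM in B0 and 211 CPM in BA10, a log2 ratio of 1.96. Of all genes kept, 38.4% were past the fold higher and 31.3% lower in BA10 against B0, and these libraries differed widely in cell markers.

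Among genes with known coordinates, 2 others were kept within 1000 kb of Speer1, both on its strand, and both were past the fold higher in A10, as were 0.477% of all genes kept. Gm5861 (chromosome 5, 11183072 to 11187810) is a predicted protein-coding gene, overlapping AC174780.1 on its strand, 154 kb from Speer1, and its level was 9.85 CPM in A0 and 25.6 CPM in A10, a fold of 2.60 (2.44 to 2.76). Also on chromosome 5, 572 kb from Speer1, 4933402N22Rik (11918043 to 11922821) had 32.8 and 57.9 CPM, a fold of 1.76 (1.70 to 1.83). In the busulfan libraries Gm5861 had 18.99 CPM in B0 and 44.6 in BA10, and 4933402N22Rik had 39.0 and 103 CPM. The named Speer copies did not share the size of this difference. Of 9 Speer genes in the table, all 9 were kept and 1, Speer1 itself, was past the fold, with a median log2 ratio of 0.17 against -0.03 over all genes. The median was 0.07 with 10 CPM added and 0.03 over the Speer genes seen in 10% or more of cells. Speer2 had 157 CPM in A0 against 160 CPM in A10, and Speer4e had 45.9 and 55.6 CPM. Speer4b, the lowest of the family in log2 ratio, was at -0.15.

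The sequences just before the starts of Speer1 and Gm5861 are shown because these copies of one sequence carried the largest higher levels. Each is the 150 bases before the transcript start in RefSeq on GRCm38.p6, in the direction of the gene, and capitals mark the motif TGATGTCA or its reverse complement TGACATCA, a variant of the site that binds cyclic AMP response factors such as CREM.
Speer1, chr5:11341311-11341460, plus strand: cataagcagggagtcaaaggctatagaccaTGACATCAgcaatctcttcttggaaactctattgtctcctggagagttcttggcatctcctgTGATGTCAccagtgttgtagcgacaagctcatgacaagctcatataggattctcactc
Gm5861, chr5:11182865-11183014, plus strand: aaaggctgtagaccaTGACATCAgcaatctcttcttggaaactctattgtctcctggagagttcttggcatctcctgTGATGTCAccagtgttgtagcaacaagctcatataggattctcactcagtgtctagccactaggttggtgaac

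Over the 250 bases before their starts, Speer1 and Gm5861 were identical at 222 of 235 aligned positions (94.5%), with 11 gap positions. The motif began 58 and 120 bases before the Speer1 start and 73 and 135 bases before that of Gm5861, once on each strand. Among 32851 promoters of the same length, 2.93% held it on either strand, as did 192 of the 6974 genes kept that had a promoter in the table (2.75%). It was held by 3 of the 31 higher genes and 0 of the 29 lower genes with a promoter. Speer1 and Gm5861, with nearly the same window, are among those 3, so the count is no separate result. A match describes the letters and is not evidence of binding.

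The other genes with the largest higher levels came from unrelated families and were mostly sparse. BC029214 was at 5.85 CPM in A0 and 13.4 CPM in A10, a fold of 2.29 (2.11 to 2.48), and Mfap5, a protein of extracellular microfibrils, at 3.26 and 7.51 CPM, a fold of 2.31 (2.07 to 2.57). Mog, best known as a surface protein of myelin, had 2.07 and 4.88 CPM and was seen in 3.00% and 6.28% of cells. Gm14295 had 1.47 and 3.65 CPM, and Hapln1, a link protein of hyaluronan matrix, had 2.47 and 5.40 CPM. These last genes were thus at few transcripts per cell even where they were higher. Zmynd8, a reader of modified histones, had 20.4 and 37.6 CPM, and Gss, the enzyme that completes glutathione, had 6.67 and 12.8 CPM. Car5a, a mitochondrial carbonic anhydrase, had 3.48 and 6.57 CPM, Zbtb40, a zinc finger gene, had 5.05 and 8.70 CPM, and Defb19, a beta-defensin, had 27.5 and 44.7 CPM.

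A few of them differed in where the ratio was large. BC029214 went from 10.8 to 34.6 CPM in late ST-like cells (log2 1.60) and from 4.75 to 7.02 CPM in SPC-like cells (0.48). Gss went from 7.35 to 20.04 CPM in late ST-like cells (1.33) and from 7.14 to 10.2 CPM in SPC-like cells (0.46). Zmynd8 had its higher level in SPC-like cells, with 41.8 and 71.5 CPM (0.76), against 7.87 and 16.8 CPM in round ST-like cells (1.01). Differences between classes were not tested.

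Among genes with 100 CPM or more on average, 2061 in all, 7 were higher and 1 was lower. Both are smaller shares than the 0.477% higher and 0.465% lower of all genes kept. Atp6ap1l, a relative of an accessory subunit of the vacuolar proton pump (chromosome 13, 90883433 to 90905355), had 73.4 CPM in A0 against 140 CPM in A10, a fold of 1.90 (1.86 to 1.95). Camk2n1, an inhibitor of the calcium/calmodulin kinase CaMKII (chromosome 4, 138454314 to 138460123), had 83.8 and 144 CPM, a fold of 1.72 (1.68 to 1.75). Mrto4, a ribosome assembly factor 887 kb from Camk2n1, had 95.9 and 151 CPM, a fold of 1.58 (1.54 to 1.61). These differences were present in SPC-like, round and late ST-like cells, and for Atp6ap1l the log2 ratio was 0.93, 1.05 and 0.34, respectively. Rps28 and Rps27, proteins of the small ribosomal subunit, had 391 and 572 CPM and 702 and 1001 CPM. Sec61g, a subunit of the protein channel of the endoplasmic reticulum, had 187 and 271 CPM, and Ghrl, the gene of the hormone ghrelin, had 97.1 and 140 CPM. Anapc13, Rps21 and Tomm7 came next, at log2 ratios of 0.50, 0.49 and 0.48, just short of the fold.

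**Figure D2:**
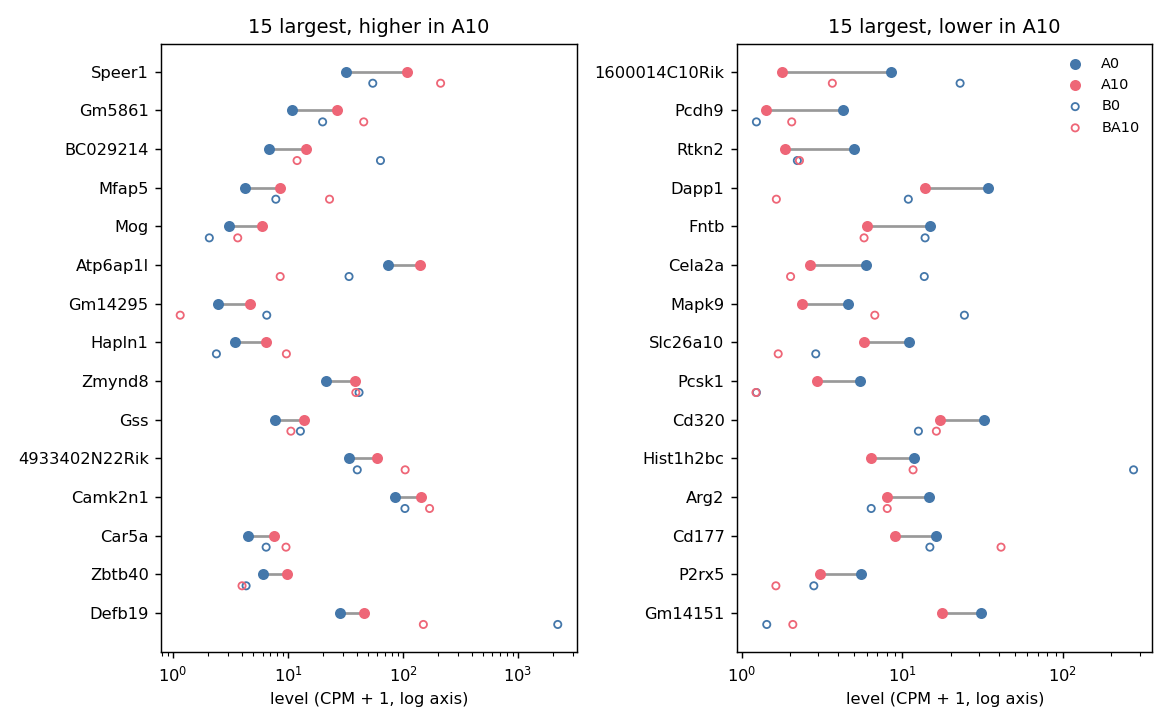
Levels (CPM with 1 added, log axis) of the 15 genes with the largest higher and the 15 with the largest lower log2 ratio of A10 over A0. Filled points joined by a line are A0 and A10, open points B0 and BA10. Speer1 reached 108 CPM in A10 from 30.8 in A0, and in several genes, such as Defb19 and Atp6ap1l, the open points lie in the opposite order.

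Lower genes were also sparse as a rule, with a median level of 11.0 CPM against 17.7 CPM for the higher ones. 1600014C10Rik (chromosome 7, 38183217 to 38197568, plus strand), which overlaps D530033B14Rik on the opposite strand, had 7.47 CPM in A0 against 0.786 CPM in A10, or 1127 and 113 UMIs, a fold of 0.105 (0.0859 to 0.128). It was seen in 10.7% of A0 cells and 1.13% of A10 cells. In round ST-like cells it went from 10.4 to 0.894 CPM, in late ST-like cells from 10.4 to 1.37 CPM and in SPC-like cells from 3.12 to 0.358 CPM. Pcdh9, a protocadherin of cell adhesion on chromosome 14, had 3.26 and 0.424 CPM, a fold of 0.130 (0.0982 to 0.170), and Rtkn2 on chromosome 10 had 3.99 and 0.856 CPM, a fold of 0.215 (0.175 to 0.261). The levels of Pcdh9 and Rtkn2 in A0 were highest in round ST-like cells (5.83 and 8.14 CPM), where they were 0.821 and 1.77 CPM in A10.

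Dapp1 and Fntb had their highest levels in SPC-like cells, where they were lower in A10. Dapp1, a phosphoinositide-binding adaptor of B cell signalling (chromosome 3, 137931007 to 137981545), had 33.4 CPM in A0 against 12.8 CPM in A10, a fold of 0.385 (0.365 to 0.406). In SPC-like cells it had 53.2 and 18.6 CPM, and its UMIs were in 43.5% and 16.3% of cells. Fntb, the beta subunit of protein farnesyltransferase (chromosome 12, 76765589 to 76921412), which overlaps Churc1 on the same strand, had 13.9 and 5.03 CPM over all cells, a fold of 0.362 (0.332 to 0.394). In SPC-like cells its levels were 21.7 and 5.68 CPM. In B0 and BA10 the levels were 9.91 and 0.646 CPM for Dapp1 and 12.9 and 4.79 CPM for Fntb. Of all genes kept, 31.3% were past the fold lower and 38.4% higher in BA10 against B0. Cell markers differed widely between those 2 libraries, so the lower levels there are no separate support.

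The other lower genes among the 15 largest were of varied kinds. Cela2a, an elastase, had 4.95 and 1.66 CPM, Mapk9, the stress kinase JNK2, had 3.57 and 1.38 CPM, and Pcsk1, a convertase of prohormones, had 4.48 and 1.93 CPM. Cela2a was not lower in every class, with 3.44 and 3.49 CPM in late ST-like cells and 9.01 and 17.5 CPM in the few SPG-like cells. Slc26a10, of an anion exchanger family, had 9.99 and 4.77 CPM, Cd320, the receptor for transcobalamin, had 31.2 and 16.3 CPM, and Cd177, a surface protein known from neutrophils, had 15.3 and 8.002 CPM. P2rx5, an ATP-gated channel, had 4.54 and 2.09 CPM, Arg2, the mitochondrial arginase, had 13.6 and 7.02 CPM, and Hist1h2bc, a core histone, had 10.9 and 5.43 CPM. Gm14151, a predicted gene, had 30.1 and 16.6 CPM over all cells, and 50.2 and 31.3 CPM in round ST-like cells. In all, 6 lower and 4 higher genes passed a log2 ratio of 1. Of the 6 lower ones, 1600014C10Rik, Pcdh9, Rtkn2 and Cela2a reached 5% of cells in A0 alone, where they were high. Of all called genes, 12 of the 42 lower and 5 of the 43 higher ones reached that share in 1 library only. Other annotated genes overlap several of these, such as Acss2 on the opposite strand of Gss, Ctrc on the strand of Cela2a and B4galnt1 on the opposite strand of Slc26a10.

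At 100 CPM or more, Tmigd3 (chromosome 3, 105870903 to 105924042), which overlaps Adora3, was the 1 lower gene past the fold. It had 207 CPM in A0 against 142 CPM in A10, a fold of 0.685 (0.673 to 0.698), and its log2 ratio of -0.54 was -0.45 with the cell mix held fixed. The next in order were short of the fold. They were Ddx20, a helicase of the complex that assembles spliceosomal particles (267 and 194 CPM, log2 -0.46), and Cfap69, a protein of the sperm flagellum (236 and 178 CPM, -0.41). Arih1, Gm3417, Ccin, 4921507P07Rik, Atp1a4, Tuba8 and Chl1 followed between -0.39 and -0.33. Atp1a4 is the sodium pump isoform of sperm and Ccin encodes calicin of the sperm head.

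**Figure D3:**
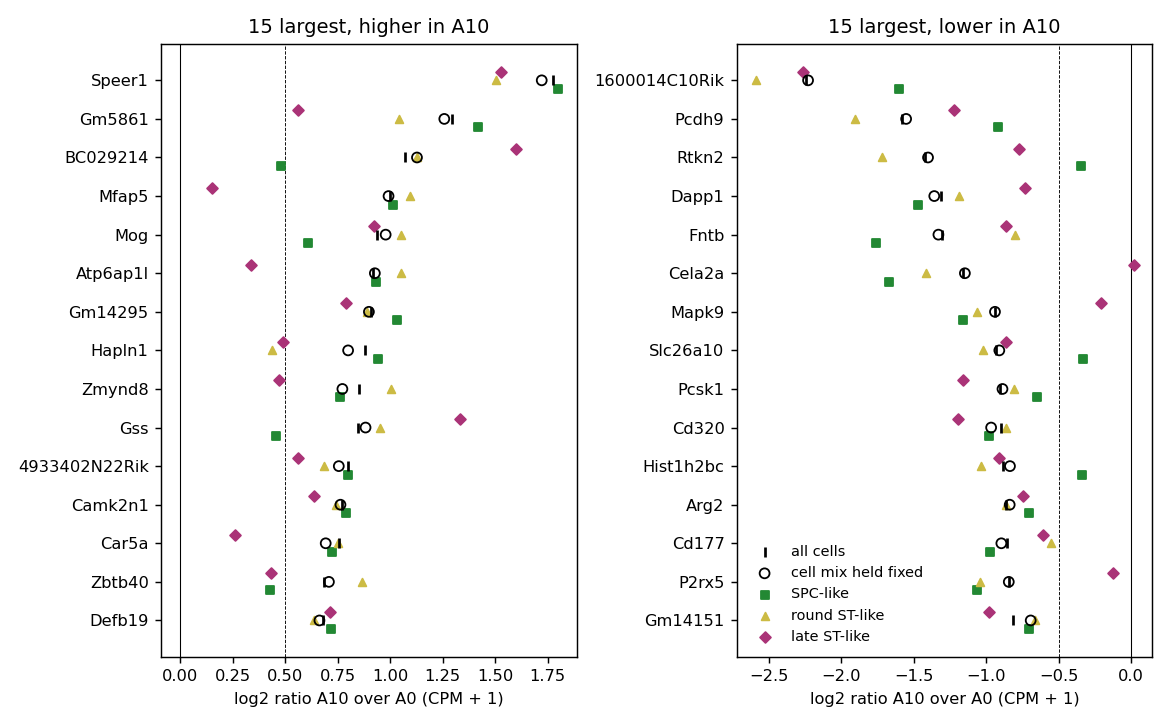
Log2 ratio of A10 over A0 (1 CPM added) of the same 30 genes over all cells (vertical bar), with the cell mix held fixed (open circle) and within SPC-like (square), round ST-like (triangle) and late ST-like cells (diamond). The dashed lines mark a log2 ratio of 0.5 on the side of each panel. Holding the mix fixed hardly moved the ratios, which differed more between classes, as for BC029214 and Cela2a.

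The share of called genes differed between classes. SPC-like cells had 36 higher genes (0.406%) and 31 lower (0.35%) of 8869 seen in 5% or more of cells. Round ST-like cells had 65 higher (0.755%) and 47 lower (0.546%) of 8610, and late ST-like cells had 64 higher (0.986%) and 106 lower (1.63%) of 6492. Late ST-like cells held 25301715 UMIs in A0 and 24048632 in A10, against 55847025 and 55802164 in SPC-like cells. The part of depth, and of genes kept only through the library where they are high, in these shares was not tested. The median log2 ratio of the genes kept was -0.08 in late ST-like cells, against -0.03 in SPC-like and -0.02 in round ST-like cells. Levels are parts of a fixed total, and in late ST-like cells transition proteins and protamines took 152713 CPM in A0 and 182360 CPM in A10. In the small SPG-like and somatic-like classes, where few UMIs stand behind a gene, 20.3% and 10.3% were past the fold higher and 11.2% and 13.7% lower. The genes called over all cells and kept in a class had the same sign in SPC-like, round and late ST-like cells. Of the 43 higher genes, 39 were kept in SPC-like cells and 25 of those were past the fold there, 35 of 39 were past it in round ST-like cells and 20 of 28 in late ST-like cells. Of the 42 lower genes, 20 of 29, 33 of 38 and 23 of 29 were past it. In the few SPG-like cells 33 of 38 higher and 31 of 39 lower genes had the same sign, and in somatic-like cells 38 of 40 and 31 of 38. Since the same cells enter both counts, this describes the spread over classes and adds no independent support.

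Some genes were past the fold in late ST-like cells and were not called over all cells. In late ST-like cells Slco6d1, an organic anion transporter, had 3.52 CPM in A0 against 6.53 CPM in A10, against a log2 ratio of 0.06 over all cells. Galk2, a galactokinase, had 12.8 and 5.03 CPM in late ST-like cells (log2 -1.19) against -0.25 over all cells. Fam131c had 7.79 and 1.33 CPM and Nectin4, an adhesion protein, had 11.03 and 3.37 CPM in late ST-like cells. Over all cells these last genes had log2 ratios of -1.04 and -0.78 and were seen in too few cells to be kept. The genes named here were picked for the size of their difference in late ST-like cells. A gene was kept in a class when it was seen in 5% of its cells in either library. Genes kept only through the library where they are high are therefore selected to differ.

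Genes past the fold lay together at a few places in the genome. On chromosome 7, 4 of the 7 tissue kallikreins kept (serine proteases of the Klk1 family) were past the fold higher in A10, against 0.477% of all genes, with gaps of up to 245 kb between any pair of them: Klk1b3 with 26.1 and 40.6 CPM, Klk1b9 with 38.3 and 58.6 CPM, Klk1 with 11.9 and 18.3 CPM and Klk1b4 with 3.97 and 6.03 CPM. Their highest levels were in late ST-like cells, where Klk1b9 had 137 and 222 CPM and Klk1b3 had 95.1 and 158 CPM. Their log2 ratios over all cells were between 0.50 and 0.62, and Klk1b4 was at 0.46 with the mix held fixed. The other members kept, Klk1b8 (159 and 219 CPM), Klk1b26 (7.53 and 9.23 CPM) and Klk1b5 (8.04 and 9.92 CPM), had log2 ratios of 0.45, 0.26 and 0.27, short of the fold. These copies are similar, and some reads may fit several of them. On chromosome 2 the beta-defensins Defb19, Defb45 and Defb36, at most 24.0 kb apart from end to start, had log2 ratios of 0.68, 0.54 and 0.51. Their level was highest in cluster 15, named Sertoli-like below, which held 77 A0 and 102 A10 cells. With the cell mix held fixed, Defb19 was at 0.66 and Defb45 at 0.54, and Defb36, at 0.49, was no longer past the fold.

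Other neighbours differed in direction. Dtwd1 and Fam227b, 137 bp apart on chromosome 2, had log2 ratios of 0.55 and -0.60, and Rps28 and Cd320, 18.5 kb apart on chromosome 17, had 0.55 and -0.90. Car5a and Slc7a5, an amino acid transporter 8.43 kb away on chromosome 8, were at 0.76 and -0.80. On chromosome 7, Pop4, a subunit of ribonuclease P, was at 0.62 and lay 64.4 kb from 1600014C10Rik. Chromosome 2 held 10 of the 43 higher and 7 of the 42 lower genes among its 682 genes kept, where all chromosomes together had 0.477% higher and 0.465% lower. Chromosomes 16 (274 genes kept), X (218) and Y (10) had 0 genes past the fold in either direction, which at those shares is no result for so few genes.

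Prm1, Prm2 and Prm3 encode protamines and Tnp1 and Tnp2 transition proteins, and this list had the highest median log2 ratio of all lists, 0.31. Past the fold were 0 of its 5 members, which is no result where 0.477% of all genes kept were past it higher and 0.465% lower. Prm1 (chromosome 16) had 12309 CPM in A0 against 16635 CPM in A10, a fold of 1.35 (1.35 to 1.35), and Prm3 had 990.3 and 1245 CPM, a fold of 1.26 (1.25 to 1.27). Tnp1 (chromosome 1) had 4712 and 5833 CPM, a fold of 1.24 (1.23 to 1.24). Tnp2 and Prm2 were nearly level, with folds of 1.07 and 1.03. Prm1, Prm2, Prm3 and Tnp2 lie side by side on chromosome 16, so the members of 1 gene cluster were not alike in this respect.

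Prm1 had 2050 and 2656 CPM in SPC-like cells, 8108 and 11054 CPM in round ST-like cells and 47121 and 65821 CPM in late ST-like cells, log2 ratios of 0.37, 0.45 and 0.48. In SPG-like cells it was lower in A10, with 18982 and 17338 CPM. Prm1 UMIs were present in 100% of the cells of every class, SPG-like and somatic-like cells included, in which this transcript is not known as a product. The part of RNA carried over from other cells, of doublets and of cell naming in the class levels was not tested. Tnp1 was likewise higher in SPC-like, round and late ST-like cells (log2 0.26, 0.31 and 0.36) and lower in SPG-like cells (-0.28). The median transcript length of the list was 469 nucleotides, and short transcripts were higher in A10 in general, as given below.

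The 150 bases before the starts of the 5 genes are printed because they are the list with the highest median, though 0 of them passed the fold. All lie on the minus strand of GRCm38.p6, read in the direction of the gene, and capitals mark TGATGTCA (Tnp1), TGACTTCA (Prm1) and TTTATA, the reverse complement of the TATA-box letters TATAAA (Prm2).
Tnp1, chr1:73015900-73016049: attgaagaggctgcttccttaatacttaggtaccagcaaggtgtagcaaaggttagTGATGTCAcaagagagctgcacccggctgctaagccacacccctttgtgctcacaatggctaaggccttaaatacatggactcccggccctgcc
Prm1, chr16:10796824-10796973: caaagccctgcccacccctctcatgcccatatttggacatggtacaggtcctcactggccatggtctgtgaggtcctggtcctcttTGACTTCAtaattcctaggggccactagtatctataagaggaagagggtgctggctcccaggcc
Tnp2, chr16:10788656-10788805: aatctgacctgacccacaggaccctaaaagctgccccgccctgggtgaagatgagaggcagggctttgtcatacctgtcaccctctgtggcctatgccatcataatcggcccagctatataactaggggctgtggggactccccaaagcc
Prm2, chr16:10792106-10792255: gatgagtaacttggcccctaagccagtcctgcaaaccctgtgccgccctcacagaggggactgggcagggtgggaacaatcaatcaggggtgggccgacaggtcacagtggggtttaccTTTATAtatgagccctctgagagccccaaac
Prm3, chr16:10790915-10791064: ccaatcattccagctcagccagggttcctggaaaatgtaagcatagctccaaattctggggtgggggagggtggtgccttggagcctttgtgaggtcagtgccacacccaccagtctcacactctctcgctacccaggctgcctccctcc

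Tnp1 held the motif of Speer1 and Gm5861, 94 bases before its start, and Prm1 held the related TGACTTCA 64 bases before its start. The Tnp2 and Prm3 windows had 0 matches to TGACGTCA, TGATGTCA, TGACTTCA, TATAAA and TTTAAA on either strand, though Prm3 had a fold of 1.26. Of all promoters, 1.55% held TGACGTCA, 1.31% TGACTTCA, 12.4% TATAAA and 12.1% TTTAAA. Nothing about a factor follows from these letters.

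Among the other lists of late germ cell genes, 1 member was past the fold. Of all genes kept, 0.477% were past it higher and 0.465% lower, so a count of 1 in lists of this size is no result. In 4 of the lists the median log2 ratio was between -0.18 and -0.14. The testis-specific serine kinases, which act in sperm maturation, had 0 of 7 members above 0 and a median log2 ratio of -0.18. Tssk2 had 936 and 797 CPM and Tssk1 had 634 and 557 CPM. Outer dense fibre and fibrous sheath genes, which stiffen the sperm tail, had 2 of 14 above 0 and a median of -0.14, with Smcp at 3450 and 3140 CPM. The ADAM family of the sperm surface had 2 of 13 above 0 and a median of -0.14, with Adam5 at 692 and 585 CPM. Testis histone variants had 3 of 6 kept and a median of -0.16, which was -0.08 as a mean of each cell's share and -0.05 with no filter: Hils1, a linker histone of spermatids, had 1402 and 1259 CPM and H1fnt had 778 and 658 CPM, while H2afb1 had 412 and 450 CPM. Acrosome genes (22 kept, median -0.05), axoneme and flagellum assembly genes (22, -0.01), sperm ion channels and pumps (14, -0.07) and testis chaperones (12, -0.06) were close to the median of all genes. Among them Crisp2, a sperm protein found with the acrosome, had 2193 and 1953 CPM, and Meig1, needed to build the sperm tail, had 7539 and 8378 CPM. Spermatid serine proteases and cystatins had 1 of 18 members past the fold, Cst9 (17.7 and 25.8 CPM, log2 0.52), and a median of -0.02. Cst9, a cystatin, had its highest level in the Sertoli-like cluster of 77 A0 and 102 A10 cells, and with the cell mix held fixed its log2 ratio of 0.496 was short of the fold.

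Synaptonemal complex genes, which pair homologous chromosomes, had 7 of 10 above 0 and a median of 0.13 (0.08 with 10 CPM added), with Sycp3 at 167 and 187 CPM and Syce3 at 193 and 226 CPM. Of the other meiotic lists, cyclins and kinases of the meiotic division (17 kept) were at 0.05, piRNA pathway genes (19), which silence transposons, at 0.02, germ cell RNA storage and translation genes (15) at 0.02, meiotic recombination genes (13) at -0.06, meiotic and spermatid transcription regulators (12) at -0.08 and meiotic cohesins (4) at -0.10. In the 122 and 106 SPG-like cells, 12 of 19 cyclins and kinases of the meiotic division were past the fold on the higher side, with a median of 0.55 against 0.12 over all genes kept in that class, of which 20.3% were past it higher. In the same cells some spermatid lists lay below 0, with medians of -0.42 for the serine kinases, -0.35 for outer dense fibre genes and -0.28 for transition proteins and protamines, while axoneme genes were at 0.28. Without cells called doublets, 93 and 92 SPG-like cells were left, and 13 of the 19 were past the fold (median 0.74), with the serine kinases still at -0.42. Of the 10587 genes kept in those cells, 20.9% were past the fold higher, and their median was 0.09. The part of spermatid RNA in these values was not tested. Crem, the main activator of spermatid genes, had 461 CPM in A0 against 424 CPM in A10. Spermatogonial genes (6 of 24 kept, -0.07) and retinoic acid supply and receptor genes (7 of 17 kept, -0.10) were mostly seen in under 5% of cells. Rdh11, a retinol dehydrogenase, had 93.8 and 82.5 CPM. The background of these lists was 0.477% higher and 0.465% lower among all genes kept.

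Lists for oxidative stress, inflammation and cell death had 0 members past the fold, where 0.477% of all genes kept were past it higher and 0.465% lower, so a count of 0 in lists of this size is no result. Antioxidant enzymes (17 of 25 kept) had a median log2 ratio of -0.04 and a highest one of 0.18, and Gss (6.67 and 12.8 CPM), which acts in glutathione synthesis, is not on that list. Gpx4, the peroxidase of sperm mitochondria, had 3354 and 3144 CPM, and Sod1, a dismutase, had 440 and 405 CPM. Endoplasmic reticulum stress genes (10, median 0.01), p53 response and apoptosis genes (5 of 19 kept, -0.04), inducible heat shock genes (9, -0.03) and inflammation genes (3 of 10 in the table kept, 0.05) were similarly placed. Immediate early genes, which respond within minutes to stress, dissociation included, had 5 of 15 kept and a median of -0.17, which was -0.09 with the cell mix held fixed and -0.07 with 10 CPM added, with Klf4 at 75.2 and 64.0 CPM and Jund at 42.3 and 40.1 CPM.

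**Figure D4:**
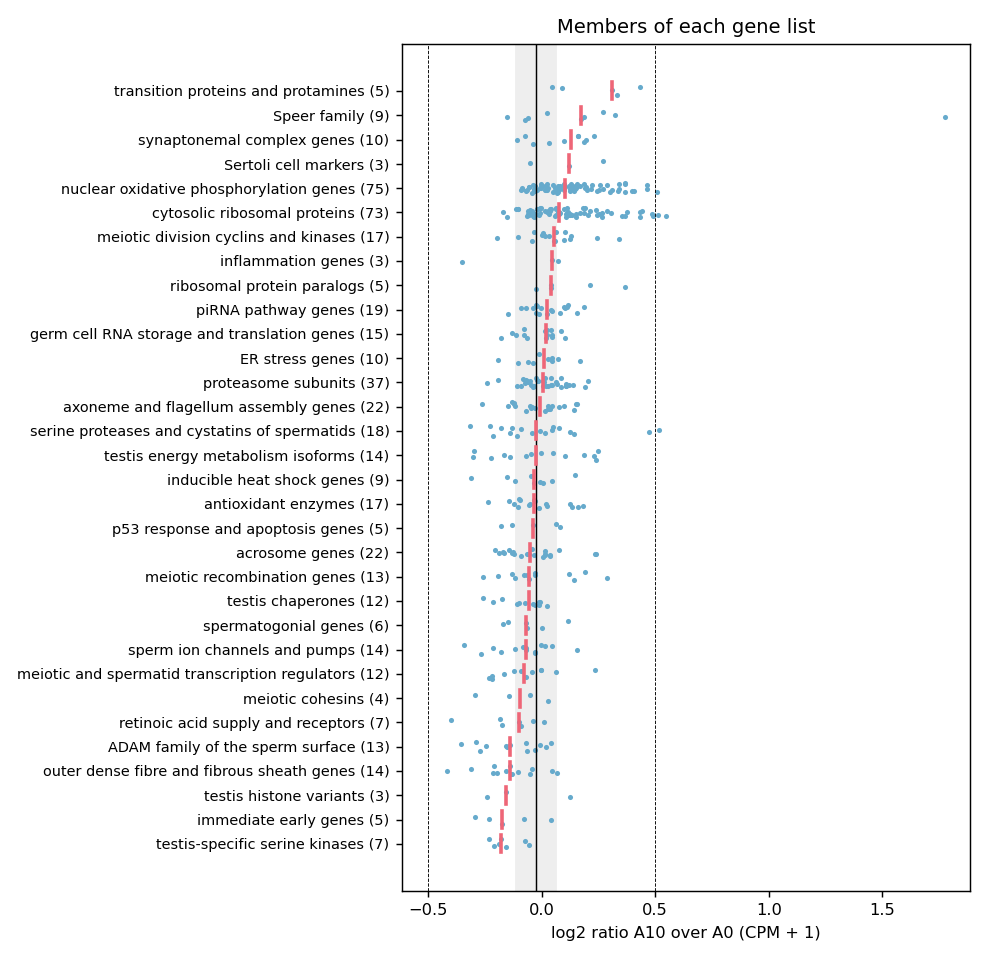
Log2 ratio of A10 over A0 (1 CPM added) of each member kept, for lists with at least 3 of them, 1 blue point per gene, with the list's median as a red bar and the number of members in brackets. The black line marks the median of all genes kept, the grey band their quartiles, and dashed lines mark 0.5 either way. Points past the fold are few, Speer1 among them.

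Housekeeping lists had 3 members past the fold, all higher in A10, against 0.477% of all genes kept. Of 73 cytosolic ribosomal protein genes kept, 50 were above 0, the median log2 ratio was 0.08, and Rps28 and Rps27 were past the fold. Rpl13 had 2495 and 2632 CPM and Rpl41 had 1821 and 2330 CPM. Of 75 nuclear genes of oxidative phosphorylation, 57 were above 0, the median was 0.10, and Atp5k, a subunit of the ATP synthase, was past the fold with 54.4 and 77.9 CPM. Ribosomal protein paralogs (5, median 0.04), proteasome subunits (37, 0.01) and testis isoforms of energy metabolism (14, -0.03) were near 0. Ldhc, the lactate dehydrogenase of germ cells, had 7797 and 7776 CPM.

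The ratio was related to transcript length across all genes. The 82 genes with a transcript under 500 nucleotides had a median log2 ratio of 0.24, with 84.1% of them above 0 and 6 past the fold on the higher side. The median was 0.03 for 722 genes of 500 to 1000 nucleotides, -0.01 for 2146 of 1000 to 2000, -0.04 for 3376 of 2000 to 4000 and -0.05 for 2349 of 4000 or more. Without ribosomal proteins the median of the shortest genes was 0.23, and at 100 CPM or more it was 0.24. It was 0.18 in SPC-like, 0.27 in round ST-like and 0.28 in late ST-like cells, and 0.27 with the cell mix held fixed. Spearman's rho of the log2 ratio with length was -0.18 across 8675 genes and -0.52 across the 73 ribosomal protein genes, as a description of genes that share both libraries. Called genes followed the same order, with a median length of 1249 nucleotides for higher genes and 2314 for lower ones. Lengths are those of the longest principal transcript of a gene in GENCODE M21. Where none is marked principal, the longest protein-coding transcript was taken, or the longest of any type where there was none. The part of transcript length in the values of short genes such as Rps27, Prm1 and Atp5k was not tested, and Speer1, Atp6ap1l and Camk2n1 have transcripts of 1123, 1186 and 4444 nucleotides.

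**Figure D5:**
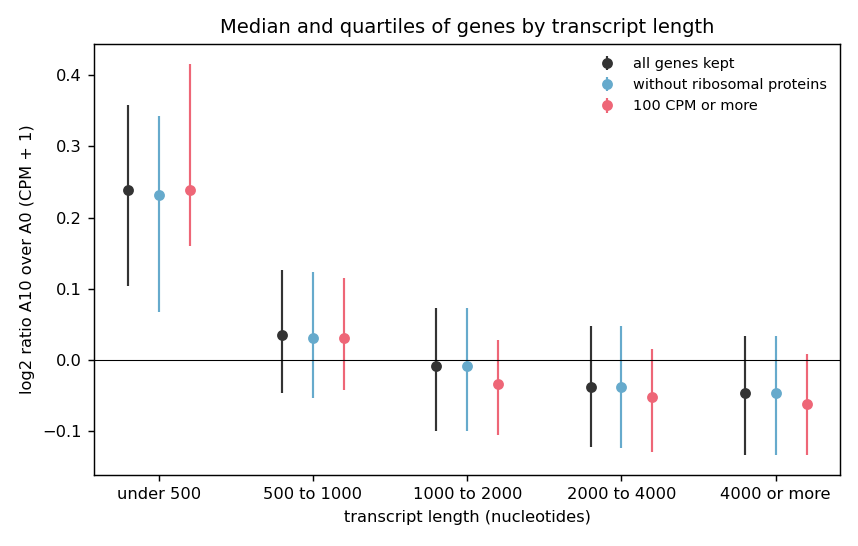
Median log2 ratio of A10 over A0 (points) with quartiles (bars) for genes in 5 bins of transcript length in nucleotides, for all genes kept, without ribosomal proteins and at 100 CPM or more. In each set the shortest bin lies highest, at a median of 0.23 to 0.24, and the bins of 2000 nucleotides or more lie below 0.

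Cell classes were of nearly the same size in both libraries. ST-like cells made up 59.7% of the A0 cells (58.6 to 60.7) against 60.2% of the A10 cells (59.2 to 61.1), a difference of 0.51 percentage points (-0.91 to 1.92). SPC-like cells made up 35.3% (34.4 to 36.3) against 34.9% (33.98 to 35.9), a difference of -0.41 points (-1.79 to 0.97). SPG-like cells were 1.36% and 1.09%, a difference of -0.27 points (-0.60 to 0.05), and somatic-like cells were 1.23% and 1.32%, a difference of 0.09 points (-0.24 to 0.42). Each of these intervals includes 0. Among ST-like cells, round ones were 38.3% of A0 and 37.8% of A10, and late ones 21.4% and 22.4%. Clusters were made without the genes past the fold, and the class names rest on markers. The shares themselves depended on the clustering. ST-like cells were 65.1% of A0 and 65.8% of A10 at resolution 0.4, and 49.0% and 49.8% with components aligned between libraries. With its own clusters the study reported a smaller share of SPCs and a larger share of STs in A10 than in A0.

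Single clusters within a class differed more than the classes. In A10 the late ST-like clusters 0, led by Cyp2a12, Prm2 and Prm1 (10.8% of A0 and 11.9% of A10, a difference of 1.10 points, 0.18 to 2.02), and 9, led by Prss51 and Cst13 (5.04% and 5.91%), held larger shares. The late ST-like cluster 10, led by Dcdc2c and Esyt3, held a smaller one (5.48% and 4.54%, a difference of -0.94 points, -1.57 to -0.30), as did the round ST-like cluster 11, led by Ptprr and Cd46 (4.24% and 3.45%). Among SPC-like clusters, 7, led by Cdk1 (5.80% and 6.65%), and 8, led by Pou5f2 (5.68% and 6.43%), were larger in A10 and 12, led by Maz and Tex101 (4.24% and 3.26%), was smaller. These intervals exclude 0 for counting error, and the spread between animals was not measured.

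Germ cells made up nearly all of both libraries by their markers, and few somatic cells were captured. According to the study, the sequenced cells came from the tubules alone, so these shares do not describe the whole testis. SPG-like cells (122 in A0 and 106 in A10) were led by Stra8, Rhox13 and Crabp1, with a score of 0.90 for spermatogonia and 0.67 for early spermatocytes. Transition proteins and protamines summed to 60302 CPM in their A0 cells and 49603 CPM in their A10 cells, against 28761 and 33978 CPM in round ST-like cells. Values of the SPG-like class are therefore not those of spermatogonia alone. Somatic-like cells were a Sertoli-like cluster of 77 and 102 cells, led by Gatm, Clu and Cst9 and carrying round spermatid markers at a score of 0.54, and a Leydig-like cluster of 33 and 26 cells, led by Cyp17a1 and Insl3, whose macrophage score equalled its Leydig score. Of 9 Leydig markers 0 were seen in 5% of cells, and their summed level was 8.45 CPM in A0 and 10.9 CPM in A10, with Cyp17a1 at 3.14 and 4.06 CPM and Lhcgr at 0.086 and 0.097 CPM. Of 12 Sertoli markers 3 were kept and they summed to 40.7 and 42.0 CPM, with Sox9 at 0.66 and 0.49 CPM. In the somatic-like class 10.3% of all 9810 genes kept were past the fold higher and 13.7% lower. Within it, 9 of 9 macrophage markers kept were past the fold lower in A10 (median log2 ratio -2.93), of which 1 reached 5% of these cells in A10 and 9 did in A0, 6 of 6 Leydig markers were past it higher (0.84), with 4 at that share in A0 and 5 in A10, and 6 of 10 immediate early genes were past it lower (-0.78), with 10 and 7 at it. Within the class the macrophage markers kept summed to 356 and 29.9 CPM, the Leydig markers to 328 and 614 CPM and the immediate early genes to 269 and 168 CPM. Genes kept only through the library where they are high are selected to differ, which applies mainly to the macrophage list. With so few cells, whether the make-up of the class differed was not tested. Over all cells, the 11 macrophage markers summed to 16.03 and 12.4 CPM, the 7 endothelial markers to 8.81 and 8.43 CPM, and the 5 red blood cell markers to 17.4 and 9.004 CPM. The 6 peritubular myoid markers summed to 320 and 280 CPM, nearly all of it Actg2 (314 and 275 CPM), which was seen in 75.6% of A0 and 73.5% of A10 cells.

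Across the busulfan libraries the genes called here were spread both ways. Of the 43 higher genes, 21 were also higher in BA10 than in B0, 17 of them past the fold, and 17 were past it in the opposite direction, while over all genes kept 38.4% were past the fold higher and 31.3% lower in BA10. Of the 42 lower genes, 20 had the same sign, 13 of them past the fold, and 14 were past it the other way. These shares are near the background, so they say nothing about the called genes. Defb19 stood at 2219 CPM in B0 and 149 CPM in BA10, and Jund, an immediate early gene, at 264 and 17.6 CPM, and no cell classes were made in these libraries here. Markers of other cell types moved with this contrast: the 9 Leydig markers summed to 15424 CPM in B0 and 430.1 in BA10, the 12 Sertoli markers to 1134 and 175 CPM, and the 19 cyclins and kinases of the meiotic division to 1132 and 3224 CPM.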

How the data were processed

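Each library was 1 pool of cells dissociated from the cut seminiferous tubules of several mice, captured with 10x Genomics 3′ chemistry. Per the submitters' processing notes, Cell Ranger 2.2.0 and mm10 were used, and the methods of the study name Seurat for filtering and normalization. Each deposited value is a natural log, taken by the authors of 1 plus the UMI share of a gene in its cell times 10000. UMIs were recovered by dividing the exponential minus 1 by its lowest value above 0 in each cell, and 100% of values were whole within 0.001. The members and the gene lists were chosen with earlier results of these data known.

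UMIs were pooled per library (150812974 in A0 and 143714595 in A10) and scaled to CPM, with 1 CPM added for log2 ratios. Intervals are exact (conditional binomial for ratios, Clopper-Pearson for shares, and those combined by Newcombe's square-and-add for differences). Genes seen in 5% or more of cells of either library were kept. Named genes were the 15 largest differences each way, the 10 largest each way at 100 CPM or more on average, and for lists the members of highest level and those past the fold, of which the text gives a part. A few genes named within a class, at a threshold or as neighbours were chosen after their values were seen. A0 and A10 cells were clustered (Scanpy 1.11.5, leidenalg 0.10.2, 2000 variable genes, 30 components, 15 neighbours, resolution 0.6) without the 126 genes past the fold among all 18419, kept or not. Clusters were scored by markers, a rule set after the data were seen, and cluster 13, a near tie of round spermatids and late spermatocytes (2.40% of A0 and 2.49% of A10), stayed unnamed. Most of cluster 13 was called doublets: without them, 6 of its 215 A0 cells and 12 of its 241 A10 cells were left. Doublets were kept, and Scrublet within Scanpy called 9.09% and 9.62% of cells. Names matched 17519 GENCODE M21 genes (GRCm38, the same build as mm10), which gave coordinates and lengths. Overlapping genes are named where they matter, and some reads may fit several similar copies. The calculation was tested on simulated counts. Alternatives were other scalings, pseudocounts, filters, thinning, doublet removal and clusterings. Transcript length bins were added after seeing the data.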

Additional observations from a re-analysis of the deposited data

Results flagged for a closer look

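Among the genes past the fold, 17 of the 43 higher and 14 of the 42 lower ones were past it in the opposite direction in BA10 against B0. With 1 library in each group, the difference between these comparisons was not tested. The values are the log2 ratio of A10 over A0 minus that of BA10 over B0. Genes higher in A10 and lower in BA10 were Defb19 (4.56), Klk1 (4.24), Defb36 (3.69), Shtn1 (3.51), BC029214 (3.48), 2810428I15Rik (3.46), Gm14295 (3.41), Defb45 (3.39), Atp6ap1l (2.91), LOC100862433 (2.81), Cst9 (2.77), 1810009A15Rik (2.17), Rps28 (2.13), Sec61g (2.08), Atp5k (2.01), Rps27 (1.98) and Tcof1 (1.55). Genes lower in A10 and higher in BA10 were Gdf9 (-2.48), Cd177 (-2.33), Pcdh9 (-2.31), Hgh1 (-2.16), Fam227b (-2.15), Gm3045 (-1.85), 1300017J02Rik (-1.79), 4930474N05Rik (-1.60), 2210011C24Rik (-1.58), Galm (-1.58), Gm14151 (-1.36), Ttll2 (-1.28), Asb14 (-1.14) and Itga1 (-1.11). Some of these values rest on few UMIs. In B0, Pcdh9 had 6 UMIs, Asb14 had 5, and Gm14151 and Ttll2 had 11 each, while Gm14295 had 14 in BA10. Atp6ap1l had 73.4, 140, 32.9 and 7.55 CPM in A0, A10, B0 and BA10, and Cd177 had 15.3, 8.002, 13.9 and 40.2 CPM. Cell markers differed widely between the busulfan libraries, with Leydig markers summed at 15424 CPM in B0 and 430.1 in BA10, and Sertoli markers at 1134 and 175 CPM, so these values do not set the same cells side by side. Over all genes kept, 38.4% were past the fold higher and 31.3% lower in BA10 against B0. The median log2 ratio of BA10 over B0 was -0.07 for the 43 higher genes and 0.02 for the 42 lower ones.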

How the results depend on the processing

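No paired analysis was possible because each group is 1 library. The counts of 43 higher and 42 lower genes became 15 and 12 with 10 CPM added, 4 and 6 at a log2 ratio of 1, and the lower count became 67 with no filter beyond 1 UMI in each library. The difference in median genes per cell, -283, became -16 after thinning to 6500 UMIs. Higher genes were 46.0% of calls with no filter. Under the other alternatives at the same fold and up to 1 CPM added, the counts stayed within 1.5 times and higher genes were 50% to 57.6% of calls. Of the values of named genes under alternatives, 388 kept their side of the fold, 20 lost the fold, 18 of them with 10 CPM added, 12 gained it and 0 changed direction. Of the list medians under alternatives, 52 moved past their set margin and 268 did not, and the median of transition proteins and protamines ranged from 0.22 to 0.36. Differences of the 4 named classes had intervals that include 0 in every clustering tried, and resolution 0.4 gave 0 SPG-like cells and 1000 variable genes 0 somatic-like cells. Depth limits counting error only, and the spread between animals was not measured.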
